A study of Homo sapiens with 6 samples.

Results

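The 46 genes described here encode the subunits of the human proteasome, its activators and the chaperones that assemble it, chosen by name and read from a table of 60683 gene rows. They comprise 7 alpha and 7 beta subunits of the 20S core, 3 catalytic subunits of the immunoproteasome, 6 ATPases and 11 non-ATPase subunits of the 19S cap, 3 chaperones of the 19S base, 4 activators and 5 chaperones of the 20S core. All 46 had a row and all 46 were among the 15846 genes that passed the filter on low counts. Messenger RNA was sequenced from 143B cells, an established human osteosarcoma line, with 3 libraries of PBS-treated cells as controls and 3 of cells treated with TPBC-PEG, both for 24 h. The series title names photodynamic therapy, in which a compound forms reactive oxygen species under light, and the design sets treated cells against untreated ones. The titles of the treated samples give 3 µM TPBC-PEG and the treatment protocol gives 300 µM, which leaves the true dose uncertain. Light exposure of the sequenced cells is not stated in the labels, and neither is whether the replicates were separate cultures. The p-values therefore reflect the spread among these libraries alone, and that spread may be technical.

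The proteasome degrades proteins that carry ubiquitin chains. Its 20S core is a barrel of stacked alpha and beta rings with the proteolytic sites inside, and the 19S cap binds ubiquitin, removes it and threads the substrate into the barrel by ATP hydrolysis. Cells that lose proteasome capacity are known to raise many subunit genes together through the transcription factor NRF1, encoded by NFE2L1, which binds antioxidant response elements, while interferon raises the immunoproteasome subunits and the activator pair PSME1 and PSME2. Both routes act at promoters, and 5 promoters, 3 of activator genes and 1 each of a core and a cap gene that fell, are shown before their values for that reason.

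RefSeq start sites on GRCh38.p14 gave windows from 250 bases before to 50 bases after the start for 40 of the 46 genes, in 48 windows. No window was matched for PSMA7, PSMB1, PSMB6, PSMB7, PSMD4 and PSMG3. The 5 printed below belong to both members of the interferon-linked activator pair, to PSME3, whose product is a nuclear activator, to PSMB3 of the beta ring and to PSMD3 of the 19S cap. They lie at chr14:24135944-24136243 on the plus strand (PSME1), chr14:24146561-24146860 on the minus strand (PSME2), chr17:42833147-42833446 on the plus strand (PSME3), chr17:38752491-38752790 on the plus strand (PSMB3) and chr17:39980557-39980856 on the plus strand (PSMD3). Each runs 5′ to 3′ along its gene, and capitals mark a match on either strand to TGACNNNGC, the core of an antioxidant response element, or to TTTCNNTTTC, a pattern like the interferon-stimulated response element.
PSME1: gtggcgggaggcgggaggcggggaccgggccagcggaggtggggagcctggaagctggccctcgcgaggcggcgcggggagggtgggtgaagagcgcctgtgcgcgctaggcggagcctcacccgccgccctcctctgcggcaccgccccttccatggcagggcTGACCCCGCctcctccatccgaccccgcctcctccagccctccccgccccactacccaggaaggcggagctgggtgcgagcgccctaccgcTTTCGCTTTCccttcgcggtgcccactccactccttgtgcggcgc
PSME2: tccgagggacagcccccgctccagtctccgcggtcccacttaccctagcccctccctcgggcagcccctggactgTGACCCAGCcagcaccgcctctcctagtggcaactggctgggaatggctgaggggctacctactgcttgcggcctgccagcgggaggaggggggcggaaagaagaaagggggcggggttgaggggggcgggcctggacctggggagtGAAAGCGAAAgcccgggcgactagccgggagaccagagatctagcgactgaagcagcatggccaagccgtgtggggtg
PSME3: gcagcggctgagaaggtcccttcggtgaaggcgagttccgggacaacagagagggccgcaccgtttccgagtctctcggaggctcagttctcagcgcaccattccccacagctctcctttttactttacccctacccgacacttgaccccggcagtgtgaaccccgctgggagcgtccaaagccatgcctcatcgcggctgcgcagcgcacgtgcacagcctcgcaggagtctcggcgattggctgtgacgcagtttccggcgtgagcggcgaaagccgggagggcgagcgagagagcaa
PSMB3: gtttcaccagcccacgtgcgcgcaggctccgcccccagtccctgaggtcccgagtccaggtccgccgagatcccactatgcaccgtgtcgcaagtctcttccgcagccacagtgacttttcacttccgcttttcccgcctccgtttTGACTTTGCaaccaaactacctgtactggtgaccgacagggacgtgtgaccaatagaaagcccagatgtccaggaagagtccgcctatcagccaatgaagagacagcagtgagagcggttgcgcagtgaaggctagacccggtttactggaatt
PSMD3: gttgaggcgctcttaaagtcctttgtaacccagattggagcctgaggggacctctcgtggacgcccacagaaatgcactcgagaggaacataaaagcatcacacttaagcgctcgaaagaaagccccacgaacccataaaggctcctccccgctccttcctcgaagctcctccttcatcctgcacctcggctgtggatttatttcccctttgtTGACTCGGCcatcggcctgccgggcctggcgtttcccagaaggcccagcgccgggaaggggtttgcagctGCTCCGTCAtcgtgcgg
In PSME1 the first match is TGACCCCGC and the other is TTTCGCTTTC, which begins 5 bases after the start. PSME2 has TGACCCAGC and, on the opposite strand, GAAAGCGAAA. PSME3 has neither pattern in this window. PSMB3 has TGACTTTGC, and PSMD3 has TGACTCGGC and, on the opposite strand, GCTCCGTCA.

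TGACNNNGC, searched on both strands, occurred in 15 of the 48 member windows (31.25%), against 13.35% of all 35116 RefSeq windows and 14.56% of the windows of tested genes. It occurred in 6 of the 19 windows of genes called lower, in the 1 window of the gene called higher and in 8 of the 28 windows of genes not called. The printed windows of PSMB3 and PSMD3 are among those 6 and do not stand for all genes called lower. The windows of PSMD2, PSMC3 and PSMD13, also called lower, have no such match. The looser TGANNNNGC, which includes every TGACNNNGC match, was in 62.5% of member windows and 41.84% of all windows. TTTCNNTTTC was in 7 member windows (14.58%), against 3.574% of all windows. Those 7 belong to PSMA4, PSMB4, PSMB8, PSMB10, PSME1, PSME2 and PSMG4. CCAAT, a common promoter element counted on both strands, was in 39.58% of member windows and 34.61% of all windows. These matches describe letters in a window and say nothing of binding in 143B cells.

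Library totals ran from 15726323 to 20486584 counts. Across genes, libraries of the same group correlated at 0.992 or more (Pearson's r, log2 CPM) and libraries of different groups at 0.988 or less. Mitochondrial genes took 5.42% to 6.32% of counts in the PBS libraries and 4.75% to 4.92% in the TPBC-PEG libraries. CPM denotes a gene's counts relative to the total of its library. Of 8 mesenchymal and bone markers, 7 were tested and 3 of them were lower and 2 higher after TPBC-PEG, with a summed level of 3044 to 3156 CPM (unscaled) in PBS and 2873 to 2993 in TPBC-PEG. COL1A2, a collagen that osteoblasts make, had at most 2 counts in any library, whereas VIM, SPARC, COL1A1, RUNX2, SPP1 and CDH2 were present. ALPL was low, at 4.97 ± 0.613 CPM in PBS and 4.21 ± 0.483 in TPBC-PEG (SD, n = 3). Leukocyte markers summed to at most 1.07 CPM in any library and endothelial markers to at most 0.490. Of the epithelial markers EPCAM was present, at 16.1 ± 1.42 CPM in PBS and 16.96 ± 0.640 in TPBC-PEG (SD, n = 3). The other epithelial markers, CDH1 and KRT5, had at most 3 and 2 counts in any library.

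The 46 genes differed widely in level. Per kilobase of annotated exon, in CPM scaled by TMM and averaged over the 6 libraries, PSMA7 of the alpha ring stood highest at 208.8, followed by PSMB4 of the beta ring at 180.9, PSMD2 of the 19S cap at 160.4 and the maturation factor POMP at 100.6. The top of that order depends on the length used, since with the length of the principal transcript PSMB4 ranked 1 and PSMA7 ranked 2. Within the beta ring the 7 constitutive subunits lay between 39.7 and 180.9 CPM per kb, and the 6 ATPases of the cap between 12.5 and 69.3. The immunoproteasome subunits were far below their constitutive counterparts, at 10.2 CPM per kb for PSMB8, 1.02 for PSMB9 and 0.576 for PSMB10. The level of PSMB10 is uncertain, since 45.3% of its principal transcript overlaps same-strand exons that include those of a readthrough gene.

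**Figure D1:**
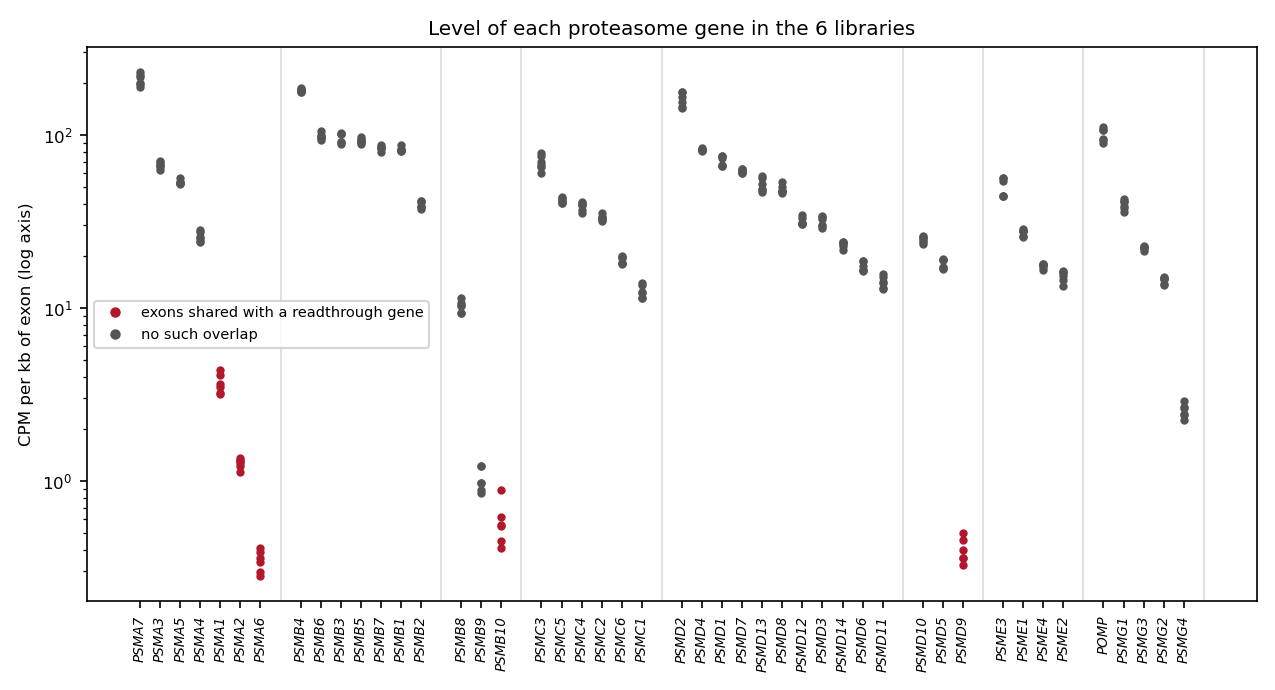
Level of each of the 46 genes in CPM per kilobase of exon on a log axis, with 1 point for each of the 6 libraries (PBS and TPBC-PEG together) and genes ordered by level within each role, in the order alpha ring, beta ring, immunoproteasome, 19S ATPases, 19S non-ATPases, 19S chaperones, activators and 20S chaperones. The 5 genes in red share exons with an annotated readthrough gene and lie between 0.345 and 3.66 CPM per kb on average.

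Some genes of the core stood far below the rest of their ring. PSMA1, PSMA2 and PSMA6, which encode obligate subunits of the alpha ring, averaged 12.1, 6.75 and 2.24 CPM, while PSMA3, PSMA4, PSMA5 and PSMA7 averaged 209.5, 181.0, 304.8 and 365.4 CPM. The 20S core holds each alpha subunit in equal number. The principal transcripts of PSMA1, PSMA2 and PSMA6 share 53.2%, 52.5% and 81.0% of their length with exons of other genes on the same strand. So do those of PSMB10 (45.3%) and the 19S chaperone PSMD9 (43.8%), and in all 5 a readthrough gene is among the partners. No other member shares more than 0.0712% on its own strand. These 5 genes ranked 40, 42, 46, 44 and 45 of 46 by level per kb, and 41, 42, 44, 46 and 45 with the length of the principal transcript. Their readthrough partners held 0, 3, 2, 118 and 0 counts over all 6 libraries. How the counting treated reads in exons shared by 2 genes is not given in the sources used here, so the part of this overlap in the low counts was not tested, and the levels of these 5 genes are uncertain.

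Across the set, more proteasome genes were lower than higher after TPBC-PEG, by small amounts. By edgeR's quasi-likelihood test with Benjamini-Hochberg adjustment over all genes (adjusted p under 0.05), 17 of the 46 fell (37.0%) and 1 rose (2.17%). Among all genes tested 16.9% fell and 16.2% rose. The 46 genes are mostly abundant, and abundant genes were called lower more often: of the 7825 genes with a mean of 20 CPM or more 28.6% fell, against 42.5% of the 40 members at that level, a subset chosen after the data were seen. In 21 members (45.7%) every TPBC-PEG library lay under every PBS library, and in 2 (4.35%) every one lay above, against 21.4% and 22.1% of all genes tested. All 21 are among the 40 members at 20 CPM or more, a level at which 33.4% of all genes lay apart in the same direction.

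The 17 changes ran from -20.5% to -7.73%, and none of the 17 had overlapping groups. The median log2 fold change was -0.07 over the 46 genes, 0.01 over all genes and -0.03 over all genes at 20 CPM or more. The estimate was below 0 in 34 of the 46, in 7662 of all 15846 genes and in 4423 of the 7825 at 20 CPM or more. Together the members took 0.722%, 0.733% and 0.722% of all counts in the PBS libraries and 0.690%, 0.685% and 0.699% in the TPBC-PEG libraries, so the groups did not overlap. With mitochondrial counts left out the shares were 0.770% ± 0.00631 in PBS and 0.726% ± 0.00815 in TPBC-PEG (SD, n = 3). When a smooth trend of fold change with expression level was removed, 12 members were lower and 3 higher and the median came to -0.04. Under the same fit 15.4% of all genes were lower and the median of all genes was -0.002. PSMA4, PSMB2, PSMC6, PSMD1 and PSMD6 lost their call in that fit, and with scaling by library size alone, which moved the median of all genes to 0.05, PSMB2, PSMC6, PSMD5 and PSMG1 lost theirs. In bulk RNA a smaller share of cells that express a gene and less RNA per cell cannot be told apart.

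**Figure D2:**
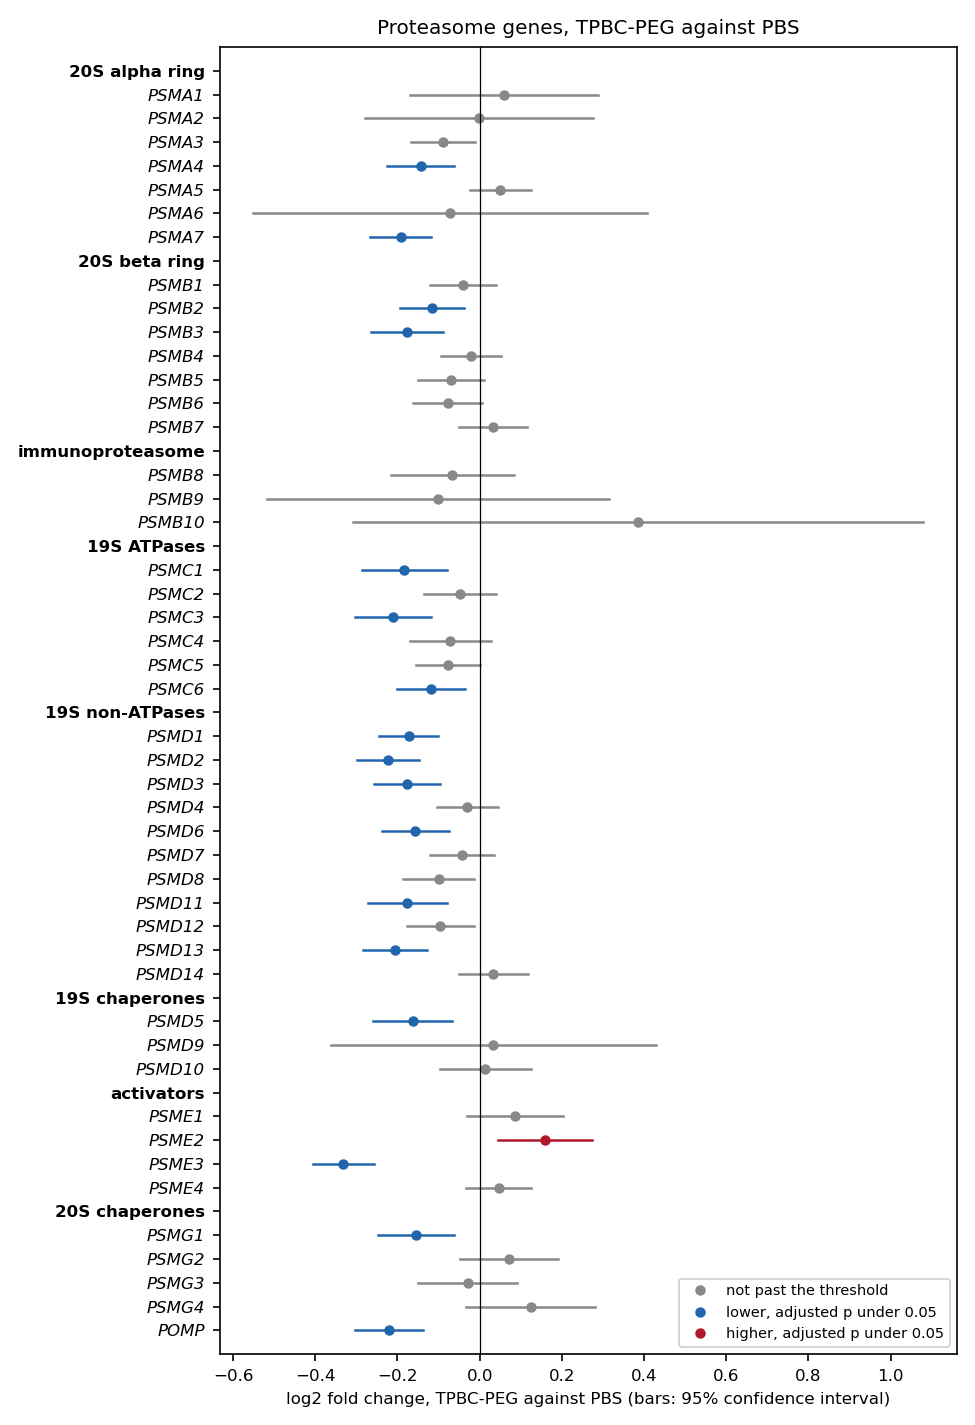
Log2 fold change of TPBC-PEG against PBS for each of the 46 genes, grouped by role, with 95% confidence intervals as bars and colour for the call by edgeR's quasi-likelihood test with Benjamini-Hochberg adjustment. The 17 genes called lower (blue) spread over every role but the immunoproteasome, and PSME2 (red) is called higher.

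In each ring of the 20S core 2 of 7 genes fell, beside 16.9% of all genes and 28.6% of those at 20 CPM or more. In the alpha ring these were PSMA7 and PSMA4, and the other 5 did not pass the test. PSMA7 stood at 403, 377 and 389 CPM in the PBS libraries and at 342, 332 and 349 in the TPBC-PEG libraries. Its lowest PBS library was above its highest TPBC-PEG library, and the log2 fold change was -0.19 ± 0.037 (SE, adjusted p = 4.13e-05). PSMA4 went from 190.0 ± 8.72 to 171.9 ± 5.31 CPM (SD, n = 3), a change of -9.48% (adjusted p = 0.00452). PSMA3 had an estimate of -0.09 and missed the threshold (adjusted p = 0.0692), but passed it with the GC trend removed (0.00143) and when PBS replicate 2 (0.0348) or TPBC-PEG replicate 3 (0.0324) was left out. PSMA5 lay higher in every TPBC-PEG library, at 303 to 323 CPM against 297 to 301, without passing the test (0.05 ± 0.037, adjusted p = 0.326). It passed with library size alone (adjusted p = 0.0426) and with the expression-level trend removed (0.00473). The intervals of PSMA1, PSMA2 and PSMA6 were wide and their estimates were 0.06, 0.00 and -0.07.

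In the beta ring the 2 of 7 that fell were PSMB3 and PSMB2, neither of which encodes a catalytic subunit. Of all genes at 20 CPM or more, 28.6% fell. PSMB3 stood at 119, 122 and 120 CPM in PBS and at 107, 104 and 108 in TPBC-PEG. The groups lay 11 CPM or more apart, and the log2 fold change was -0.18 ± 0.043 (SE, adjusted p = 0.00106). PSMB2 went from 200.1 ± 2.06 to 184.7 ± 4.19 CPM (SD, n = 3; adjusted p = 0.016), and this call was lost without TPBC-PEG replicate 2 (adjusted p = 0.109).

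None of the 3 constitutive catalytic subunits passed the test. PSMB5, the chymotrypsin-like subunit that most proteasome inhibitor drugs bind, read 163, 172 and 167 CPM in PBS and 156, 160 and 163 in TPBC-PEG (-0.07, 95% interval -0.15 to 0.01). PSMB6, the caspase-like subunit, averaged 145.9 ± 5.91 and 138.4 ± 2.49 CPM (-0.08, interval -0.16 to 0.01). PSMB7, the trypsin-like subunit, averaged 148.6 ± 5.16 and 151.9 ± 3.51 CPM (0.03, interval -0.05 to 0.11). Every PSMB5 value in TPBC-PEG was below every PBS value by a margin of 0.2 CPM or more, whereas the groups overlapped for PSMB6 and PSMB7. PSMB1 and PSMB4 had estimates of -0.04 and -0.02.

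None of the 3 immunoproteasome subunits passed the test. PSMB8 averaged 31.4 ± 3.29 CPM in PBS and 29.9 ± 1.59 in TPBC-PEG, PSMB9 3.23 ± 0.426 and 3.03 ± 0.637, and PSMB10 0.912 ± 0.207 and 1.22 ± 0.353 (SD, n = 3). The interval of PSMB10 ran from -0.31 to 1.08 on the log2 scale, which leaves a change of either sign within the error. PSMB10 also shares exons with a readthrough gene, so its level and its ratio are uncertain. The level of PSMB8 as a percentage of its counterpart PSMB5 was 19.6, 16.2 and 20.5 in the PBS libraries and 19.9, 19.2 and 17.2 in the TPBC-PEG libraries. The mean log2 ratio of PSMB8 to PSMB5 differed by 0.00 between groups (exact two-sided permutation p = 1). For PSMB9 to PSMB6 the difference was -0.02 (exact permutation p = 0.8) and for PSMB10 to PSMB7 it was 0.34 (exact permutation p = 0.3; 0.9 after adjustment over the 3 ratios). With 3 libraries a group this test cannot go below 0.1.

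The 19S cap held 9 of the 17 falls. All 6 ATPases had estimates below 0, and PSMC1, PSMC3 and PSMC6 fell. Of all genes at 20 CPM or more, 28.6% fell and 4423 of 7825 had estimates below 0. PSMC3 stood at 158, 172 and 178 CPM in PBS and at 137, 149 and 153 in TPBC-PEG. The lowest PBS library was 157.6 CPM and the highest TPBC-PEG library 153.1, so the groups parted narrowly, with a log2 fold change of -0.21 ± 0.046 (SE, adjusted p = 0.00034). PSMC6 went from 147.4 ± 2.62 to 135.7 ± 0.982 CPM (adjusted p = 0.0202), a call that was lost without PBS replicate 3 (0.059) and without either of TPBC-PEG replicates 1 (0.0787) and 2 (0.0545). PSMC5 had no overlap between groups (-0.08, adjusted p = 0.12; 0.0281 with the GC trend removed), and PSMC2 and PSMC4 had estimates of -0.05 and -0.07. PSMC4 passed the test only when TPBC-PEG replicate 3 was left out (adjusted p = 0.0489).

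PSMC1 stood at 76.1, 84.0 and 85.5 CPM in PBS and at 70.1, 75.2 and 70.4 in TPBC-PEG (-0.18 ± 0.052, SE; adjusted p = 0.00425). Its groups parted by less than 1 CPM. Of its principal transcript 82.2% lies over exons of other genes on the opposite strand, chiefly NRDE2. No strand setting is stated for the counting, so reads of PSMC1 and NRDE2 cannot be told apart if strand was ignored. Its processed pseudogene PSMC1P1 is the single one of 45 proteasome pseudogenes with more than 100 counts. It held 30.1% as many counts as PSMC1 and went from 24.2 ± 1.01 to 22.1 ± 0.590 CPM (-0.13, adjusted p = 0.19). Other members with over 10% of the principal transcript on the opposite strand to another gene are PSMD7, PSMC5, PSMG2, PSMD13 and PSME2.

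Of the 11 non-ATPase subunits of the cap 6 fell, 10 had estimates below 0, and the median log2 fold change was -0.16. Over all genes at 20 CPM or more, 28.6% fell and the median was -0.03. PSMD2, the scaffold that docks ubiquitin shuttles, is the most abundant member in CPM and stood at 901, 963 and 963 CPM in PBS and at 794, 784 and 844 in TPBC-PEG. Every TPBC-PEG library was at least 50 CPM below every PBS library, and the log2 fold change was -0.22 ± 0.037 (SE, adjusted p = 4.03e-06). PSMD1, the other large scaffold of the base, read 391, 383 and 391 CPM against 342, 343 and 347 (-0.17 ± 0.036, adjusted p = 0.000126). The spread within each of its groups was at most 4.78 CPM (SD), well under the gap between them.

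PSMD13, a lid subunit, read 248, 274 and 268 CPM in PBS and 224, 230 and 231 in TPBC-PEG (-0.21 ± 0.039, adjusted p = 3.46e-05). PSMD3 read 166, 169 and 162 CPM against 143, 147 and 150 (-0.18 ± 0.040, adjusted p = 0.00044), and PSMD11 109, 113 and 102 CPM against 101, 93.6 and 92.1 (-0.18 ± 0.048, adjusted p = 0.00294). The groups were apart for each of these lid genes, by 0.7 CPM in PSMD11, where PBS replicate 3 (101.6) and TPBC-PEG replicate 1 (100.9) nearly met. PSMD6, also of the lid, went from 167.3 ± 6.46 to 150.1 ± 0.537 CPM (-10.3%, adjusted p = 0.00188).

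PSMD14, PSMD4 and PSMD7 of the cap did not pass the test. PSMD14, the deubiquitinase of the lid, averaged 176.9 ± 9.67 CPM in PBS and 180.8 ± 5.63 in TPBC-PEG (0.03, interval -0.05 to 0.12), and PSMD4, a ubiquitin receptor, 252.2 ± 3.58 and 247.0 ± 2.16 CPM (-0.03, interval -0.10 to 0.04). PSMD7, the partner of PSMD14, had an estimate of -0.04. PSMD8 and PSMD12 had estimates of -0.10 each and missed the threshold (adjusted p = 0.0692 and 0.0641). PSMD12 passed it with the GC trend removed (0.0023), with DESeq2 size factors (0.0471) and without PBS replicate 2 (0.011), and PSMD8 without PBS replicate 3 (0.014).

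**Figure D3:**
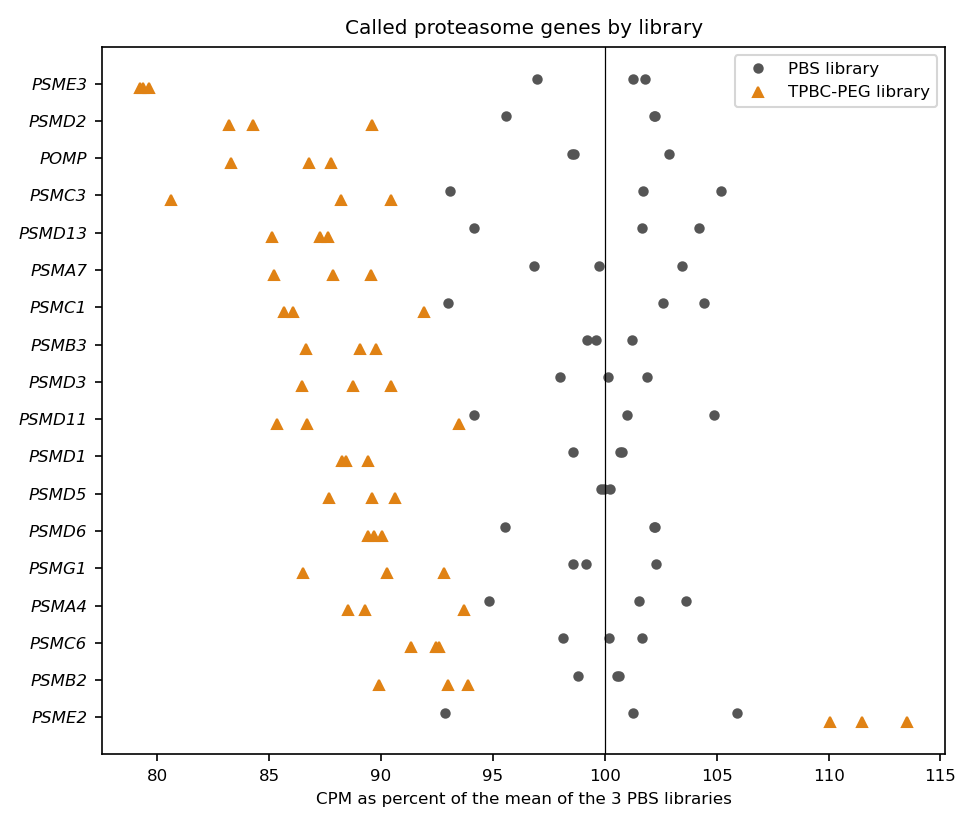
CPM of the 18 called genes in each library as a percentage of the mean of the 3 PBS libraries, with circles for PBS, triangles for TPBC-PEG and genes ordered by log2 fold change. In each of the 17 lower genes all 3 triangles lie left of all 3 circles, and in PSME2 all 3 lie to the right.

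Among the activators, which open the 20S core without the 19S cap, the members moved in both directions. PSME3 encodes the nuclear activator PA28 gamma and had the lowest estimate of the 46. It stood at 278, 290 and 292 CPM in PBS and at 227, 228 and 228 in TPBC-PEG. The TPBC-PEG libraries lay within 2 CPM of each other and about 50 CPM below the lowest PBS library, and the log2 fold change was -0.33 ± 0.037 (SE; 95% interval -0.41 to -0.26; adjusted p = 4.51e-10). It had the lowest estimate of the members in the main fit and in all 18 other settings, between -0.36 and -0.26.

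PSME2, which encodes the beta subunit of the cytoplasmic activator PA28 alpha-beta, was the 1 member that rose, from 54.6, 47.9 and 52.2 CPM in PBS to 58.5, 56.8 and 57.5 in TPBC-PEG. The groups did not overlap, and the log2 fold change was 0.16 ± 0.057 (SE, adjusted p = 0.0269). The call was lost with DESeq2 (adjusted p = 0.0765), with no filter on low counts (0.0514), and when any library other than PBS replicate 1 was left out, with adjusted p = 0.2 without PBS replicate 2, 0.0523 without PBS replicate 3, and 0.101, 0.0529 and 0.0557 without TPBC-PEG replicates 1, 2 and 3. PSME1, which encodes its partner subunit and lies 4394 bases away on chromosome 14, averaged 47.2 ± 1.98 and 50.01 ± 0.817 CPM (0.09, interval -0.03 to 0.20; adjusted p = 0.272). PSME4, the large nuclear activator PA200, averaged 176.7 ± 7.02 and 182.3 ± 0.924 CPM (0.05, interval -0.03 to 0.13), and it passed the test only with the expression-level trend removed (adjusted p = 0.0293).

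Of the 5 chaperones that build the 20S core, POMP and PSMG1 fell, beside 28.6% of all genes at 20 CPM or more. POMP, which completes the joining of the 2 preformed parts of the barrel and is degraded by the finished core, read 159, 152 and 152 CPM in PBS and 134, 129 and 136 in TPBC-PEG. No library of one group reached the range of the other, and the log2 fold change was -0.22 ± 0.041 (SE, adjusted p = 2.89e-05). PSMG1 went from 104.7 ± 2.12 to 94.1 ± 3.31 CPM (-0.15, adjusted p = 0.00663), a call lost without TPBC-PEG replicate 2 (0.0685). PSMG2, which pairs with PSMG1, had an estimate of 0.07 (47.3 ± 2.53 against 49.7 ± 0.740 CPM), and PSMG3 and PSMG4, which form the other chaperone pair, had -0.03 and 0.12, none past the threshold. Among the 19S chaperones PSMD5 fell, from 84.3 ± 0.166 to 75.3 ± 1.26 CPM (-0.16, adjusted p = 0.00642), while PSMD9 and PSMD10 had estimates of 0.03 and 0.01.

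A list of 37 related genes, of which 35 were tested, gave 7 that rose and 6 that fell, with a median log2 fold change of -0.02, beside 16.2% and 16.9% of all genes. The 6 became 3 without PBS replicate 3 and also 3 without TPBC-PEG replicate 2. PSMA8 and PSMB11, the testis and thymus subunits, had at most 4 counts in any library and were not tested. The ubiquitin receptor of the cap, ADRM1, fell from 219.9 ± 20.1 to 177.5 ± 2.58 CPM (-0.31 ± 0.047, SE, adjusted p = 5.55e-06). Of its principal transcript 24.0% overlaps exons of other genes, chiefly LAMA5. The other cap subunit of the list, SEM1, averaged 75.4 ± 8.96 and 80.5 ± 1.59 CPM and did not pass the test.

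In the circuit that controls proteasome genes, NFE2L1 averaged 173.6 ± 2.92 CPM in PBS and 180.4 ± 3.91 in TPBC-PEG (0.05 ± 0.039, adjusted p = 0.309). It passed the test with library size alone (adjusted p = 0.0478) and with the expression-level trend removed (0.017). DDI2, the protease that activates its product, and NGLY1, which removes its glycans, had estimates of -0.03 and 0.08. MAFG, a small MAF partner of these factors, rose from 48.6 ± 1.86 to 66.0 ± 3.28 CPM (0.44, adjusted p = 1.32e-08), and NFE2L2, which encodes the oxidative stress factor NRF2, from 95.1 ± 4.04 to 115.0 ± 5.03 CPM (0.27, adjusted p = 4.92e-06).

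UBB and RPS27A, which encode ubiquitin, had estimates of -0.02 each and were not called. The main ubiquitin-activating enzyme, UBA1, fell from 162.1 ± 2.60 to 140.2 ± 6.16 CPM (-0.21, adjusted p = 5.67e-05), while UBA6 had an estimate of -0.02. ZFAND2A, an arsenite-inducible protein that binds the proteasome, rose from 10.6 ± 0.420 to 17.03 ± 1.14 CPM (0.68 ± 0.0996, adjusted p = 2.50e-07). ZFAND5, a related zinc finger protein that activates the proteasome, rose (0.11, adjusted p = 0.0396), and the other 7 shuttle genes were not called.

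Of the 9 genes whose products bind the proteasome or act on it, 2 rose and 3 fell, shares near the 16.2% of all genes that rose and the 28.6% of genes at 20 CPM or more that fell. ECPAS, a scaffold that clamps core and cap together, rose from 151.0 ± 1.27 to 171.7 ± 4.89 CPM (0.19, adjusted p = 0.000201), as did AKIRIN2, which brings proteasomes into the nucleus (0.20, adjusted p = 0.0137). PITHD1 fell from 44.4 ± 1.94 to 37.1 ± 2.27 CPM (-0.26, adjusted p = 0.00119), PSMF1, an inhibitor of the 20S core, fell with overlapping groups (-0.11, adjusted p = 0.0404), and UBE3C, a ubiquitin ligase on the cap, fell (-0.12, adjusted p = 0.0217). The call of UBE3C was lost without PBS replicate 3 (adjusted p = 0.0782) or TPBC-PEG replicate 2 (0.102). USP14 and UCHL5, the deubiquitinases that bind the cap, had estimates of -0.04 and -0.05, and the 4 genes of the p97 complex were not called.

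**Figure D4:**
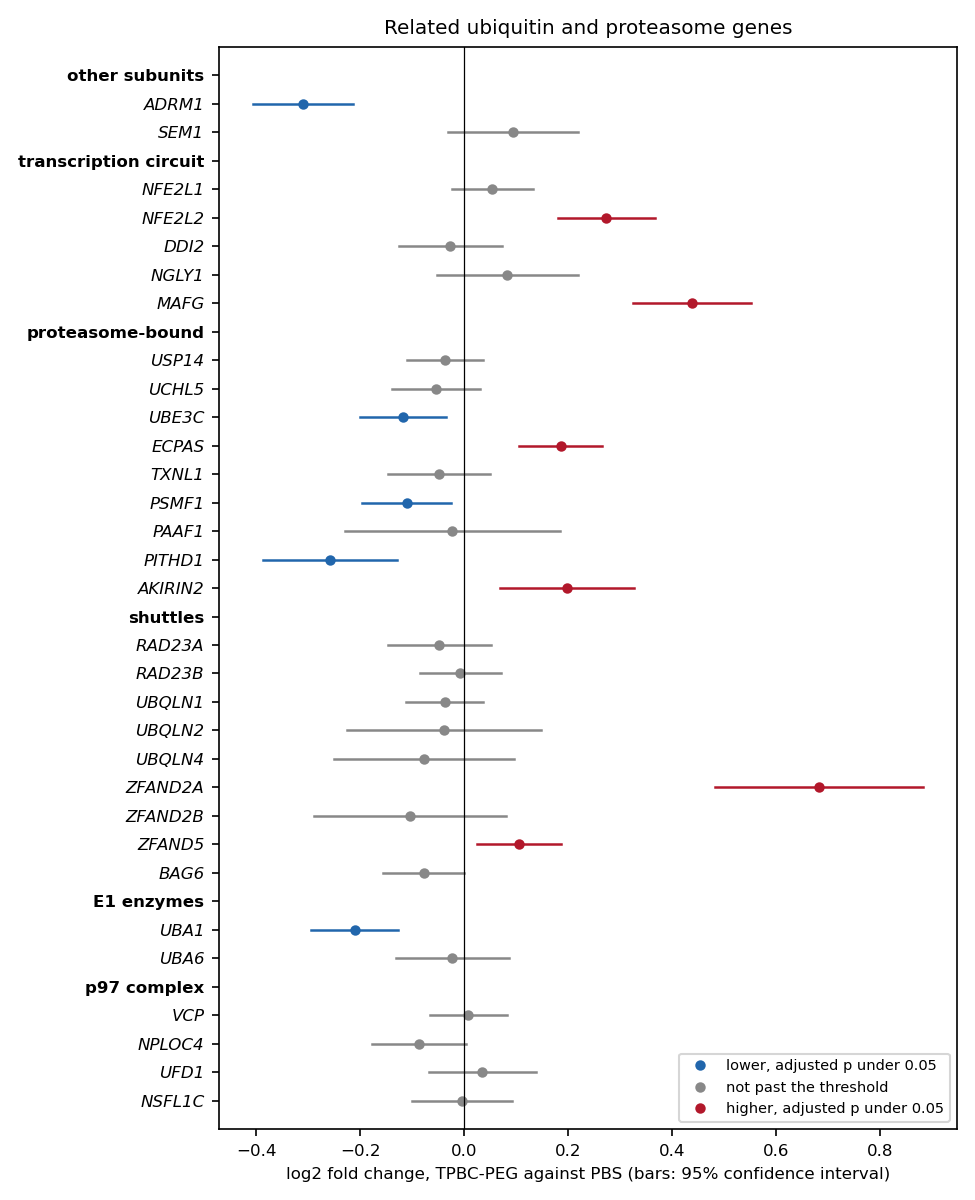
Log2 fold change of TPBC-PEG against PBS for 31 of the 35 tested related genes, grouped by role and without the ubiquitin genes, with 95% confidence intervals as bars and colour for the call by edgeR's quasi-likelihood test with Benjamini-Hochberg adjustment. ZFAND2A at 0.68 and MAFG at 0.44 lie farthest to the right, and ADRM1 at -0.31 farthest to the left.

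Peptides cut by the proteasome feed antigen presentation, and 8 genes of that pathway gave 1 rise and 4 falls, beside 16.2% and 16.9% of all genes and, for falls, 28.6% of those at 20 CPM or more. ERAP1, which trims peptides, rose (0.36, adjusted p = 8.08e-06). TAP2 of the peptide transporter, TAPBP, B2M and the class I transactivator NLRC5 fell, by 0.25, 0.23, 0.13 and 0.63 on the log2 scale. Of the principal transcript of TAP2, 80.5% overlaps exons of other genes, among them an annotated readthrough gene. TAP1, which neighbours PSMB9, averaged 14.8 ± 2.15 and 16.9 ± 1.19 CPM and missed the threshold (0.18, adjusted p = 0.176), but passed it without PBS replicate 1 (0.0333). IRF1, which carries interferon signals, had an estimate of -0.15 and was not called.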

How the data were processed

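RNA from 143B cells was sequenced in 6 libraries, 3 per group, grouped by sample title. The authors deposited raw read counts per gene, 60683 rows by Ensembl identifier. The submitters' processing notes name HISAT2 and GRCh38. The counting program, strand setting and treatment of reads shared by genes were not given in the sources used here. Total RNA was taken with Trizol, per the labels' protocols.

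Deposited counts were tested with edgeR 4.0.16 in R 4.3.3 (filterByExpr, minimum count 10 and total 15; TMM; robust glmQLFit and glmQLFTest with the group as the only term; Benjamini-Hochberg over 15846 genes; called at adjusted p under 0.05). Standard errors come from the F statistic. TMM-scaled CPM are printed, and log2 CPM for ratios had a prior count of 2. Marker sums and shares of counts use plain library totals. Library totals were 15726323 to 20486584 counts, with a common biological coefficient of variation of 4.19%. Reads carry no molecular identifiers, so counting error understates the error. Exons, overlaps and readthrough genes came from GENCODE release 29, promoter windows from RefSeq. The members, gene lists and tests were chosen with earlier results of these data known. Named were the catalytic subunits, the activators, the 20S chaperones, up to 10 called members per direction, the highest and lowest member per exon length in 4 roles, NFE2L1, TAP1, and up to 4 called related genes per direction; other members are named where a role is accounted for, and other related genes were named after their values were seen.

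Alternatives were DESeq2 size factors, library size alone, upper quartile scaling, no filter, a minimum of 1 CPM in 3 libraries, DESeq2 1.42.0, limma-voom (limma 3.58.1), non-robust estimation, a replicate block, trends with GC content, expression level or exon length removed (lowess, span 0.3), and each library left out. The length of the principal transcript and the subset at 20 CPM or more were chosen after seeing the data. Tested on simulated data for the TPBC-PEG against PBS comparison (15423 genes), the fit recovered 70% of genes changed 1.25-fold, 98% of those changed 1.5-fold or 2-fold and 100% of those changed 4-fold. Of 193 calls, 10 (5.18%) were false. Most changes reported here are below 1.25-fold. Some genes of the lists count in the totals but are not reported here by name. Protein and proteasome activity were not analysed here.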

Additional observations from a re-analysis of the deposited data

How the results depend on the processing

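The count of 17 members called lower ranged from 12 to 20 over the 18 alternatives and from 14 to 19 when 1 library was left out. Of all genes, 16.93% were lower in the main fit, and from 8.63% (no filter) to 19.24% (minimum of 1 CPM in 3 libraries) over the alternatives. This share was 15.4% with the expression-level trend removed (12 members), 18.49% with the GC trend removed (20) and 13.3% without TPBC-PEG replicate 2 (14). POMP, PSMA7, PSMB3, PSMC1, PSMC3, PSMD2, PSMD3, PSMD11, PSMD13 and PSME3, 10 in all, were called lower in each alternative. The count called higher, 1, became 2 with library size alone, 0 with no filter, 0 with DESeq2 and 3 with the expression-level trend removed, and ran from 0 to 1 without a library. Over all genes 2574 were higher in the main fit, and 3213, 2287, 1978 and 2595 in those settings, in that order. Related genes called lower, 6, became 3 with library size alone, likewise 3 with the expression-level trend removed, and ran from 3 to 7 without a library: they were 3 without PBS replicate 3 and 3 without TPBC-PEG replicate 2. The members' median of -0.075 became -0.031 with library size alone, -0.097 with the GC trend removed, -0.040 with the expression-level trend removed and -0.084 with the exon-length trend removed, and ran from -0.090 to -0.066 without a library. The cause was not tested in any of these.

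Estimates that changed sign all belonged to genes not called. With library size alone they were 0.014 for PSMG3, 0.023 for PSMB4, 0.041 for PSMA2, 0.0034 for PSMB1, 0.014 for PSMD4 and 0.00074 for PSMD7, and with upper quartile scaling 0.0031 for PSMA2. With the GC trend removed they were -0.0024 for PSME4, 0.011 for PSMG3, -0.012 for PSMA5, -0.052 for PSMD14 and -0.034 for PSMD10. With the expression-level trend removed they were 0.067 for PSMB4, 0.024 for PSMB1, 0.045 for PSMD4, 0.019 for PSMD7 and -0.054 for PSMD9. Without a library, PSMB9 ran from -0.27 to 0.0029, PSMA6 from -0.20 to 0.048, PSMA1 from -0.028 to 0.22, PSMA2 from -0.057 to 0.065, PSMD14 from -0.019 to 0.058, PSMD9 from -0.10 to 0.24 and PSMD10 from -0.030 to 0.051.

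Same-numbered libraries of the groups showed little shared deviation from their group means (r = 0.0034, 0.065 and -0.015). Differently numbered libraries of the groups ran from -0.055 to 0.051. The labels state no pairing, and correlations this small cannot exclude one. With the replicate block 17 members were lower and 1 higher, and no member's call changed. Low counts, whose cause was not tested, limit the estimates of PSMA6, PSMB9, PSMB10 and PSMD9 most, at 1.07 to 3.51 CPM.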
